A study of Mus musculus with 24 samples.

Results

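The testis-specific serine kinases were followed here as 6 genes, *Tssk1*, *Tssk2*, *Tssk3*, *Tssk4*, *Tssk5* and *Tsks*, in the testes of wild-type (WT) and *Atad2* knockout (KO) mouse pups. The genes were chosen by name, as 5 kinases of the family and the kinase-binding protein TSKS, and they make up 6 of the 24456 genes listed in each library. They are not the whole family, whose other kinases are not analysed here, and "the family" stands below for these 6 genes. *Atad2* encodes a bromodomain ATPase that binds acetylated chromatin. In the study, RNA of whole testes was sequenced at postnatal days 20, 22, 24 and 26, and the effect of losing ATAD2 on gene expression in developing spermatids was the question of the comparison.

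Each WT group was compared with the KO group of the same day. WT and KO each had 4 libraries on day 20 and also on day 22, and 2 libraries on day 24 and also on day 26, which makes 24 in all. A library name holds genotype, day and replicate number, so that WT_d20_2 is WT replicate 2 of day 20. KO males were homozygous for a knockout-first *lacZ* trap allele from which a Cre recombinase under the ubiquitous CMV promoter had removed the *neo* cassette and an exon, so that the upstream exons of *Atad2* are fused to β-galactosidase and the transcript is still made in part. No agent was given to either genotype, and the strain is not given in the sources used here. Whether each library came from its own animal is not given by the labels, and if any did not, the p-values measure the spread between libraries only. The labels name the tissue as testis and the study's methods describe whole testes, but the extract protocol in the labels also mentions a purification of germ cell fractions, and the libraries were read here as whole testis. A whole testis holds Sertoli, Leydig and peritubular cells beside the germ cells, and its share of spermatids grows over these days. In such bulk RNA, fewer spermatids and less RNA per spermatid cannot be told apart.

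The kinases of this family phosphorylate serine and threonine, consist of little more than a kinase domain, and are made in male germ cells after meiosis. TSSK1 and TSSK2 bind and phosphorylate TSKS, and the proteins gather near the chromatoid body and the centrioles of spermatids. Male mice without both TSSK1 and TSSK2 are infertile, with defects in the spermatid flagellum and its mitochondrial sheath.

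The depth was between 10709667 assigned read counts in WT_d20_2 and 19491935 in WT_d22_4. WT_d20_2 stood apart in quality, with the highest share of pairs aligned to several places, 13.7%, and the highest share of mitochondrial ribosomal RNA among gene counts, 3.26%. *Atad2* itself lay between 76.1 and 171 CPM (counts scaled to equal library sizes) in the WT libraries and between 30.8 and 53.0 CPM in the KO libraries, and no KO library overlapped a WT library. Markers of Sertoli and Leydig cells and of each germ cell stage were detected in every group. The epididymal markers *Crisp1*, *Adam7* and *Lcn8* summed to between 0 and 685 CPM in single WT libraries and between 0 and 157 CPM in single KO libraries. The 4 haemoglobin genes were listed at 0 throughout.

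All 6 genes passed the filter on low counts and were among the 17170 genes tested. On mouse build mm10, with the GENCODE M21 annotation, *Tssk1* (ENSMUSG00000041566.3) lies at chr16:17894223-17897922 and *Tssk2* (ENSMUSG00000045521.7) at chr16:17898637-17900024, both on the plus strand and each with 1 exon. *Tssk3* (ENSMUSG00000000411.7) lies at chr4:129489014-129491022 on the minus strand with 2 exon blocks, and *Tssk4* (ENSMUSG00000007591.15) at chr14:55650184-55652539 on the plus strand with 3. *Tssk5* (ENSMUSG00000060794.8) lies at chr15:76371952-76374938 on the minus strand with 6 exon blocks, and *Tsks* (ENSMUSG00000059891.14) at chr7:44943204-44958035 on the plus strand with 11. The 6 genes thus lie on 5 chromosomes, and of these genes *Tssk1* and *Tssk2* are the only pair on the same one. In RefSeq the start sites of this pair are 4434 bases apart, and *Tssk2* begins 2983 bases after the end of *Tssk1*. *Tssk1* shares 63 exon bases with *Dgcr2* on the opposite strand, and counting used the strand. No other overlap with an exon of another gene was found for the 6 genes.

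Promoter stretches were compared because *Tssk1* and *Tssk2* are neighbours with like profiles. RefSeq promoters (GRCm38.p6) were present for 5 of the 6 genes, without *Tssk5*. The windows are the 250 bases before the start sites of the RefSeq promoter table. For *Tssk3* they lie wholly inside the gene span given above, and for *Tsks* they run past the start given above. The RefSeq gene spans begin further upstream, at chr14:55643651 for *Tssk4*, chr7:44929472 for *Tsks* and, on the minus strand, chr4:129491730 for *Tssk3*. The windows of these genes thus lie inside the RefSeq gene spans. Over these windows, the best local alignment of *Tssk1* with *Tssk2* spanned 52 columns with 41 identical (78.8%). The best alignments of the other 9 pairs spanned 12 to 29 columns, with 75% to 91.7% identical. In the first alignment *Tssk2* has 3 gap columns, which are not printed below. The aligned stretches lie at chr16:17894150-17894201 for *Tssk1* and chr16:17898574-17898622 for *Tssk2*, both on the plus strand and both wholly before the start site, and are printed 5′ to 3′ with the bases identical in the alignment in capitals.
Tssk1: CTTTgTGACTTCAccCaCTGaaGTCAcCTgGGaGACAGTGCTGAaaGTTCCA
Tssk2: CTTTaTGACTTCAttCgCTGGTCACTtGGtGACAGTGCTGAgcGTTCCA
Motifs were searched on both strands of the same 250 bases. The full cyclic AMP response element TGACGTCA is present in 1.55% of the 32851 mouse promoters of this table, its shorter form TGACG, which every full element also contains, in 17.8%, the X-box part GTTGCC in 10.4% and the TATA box letters TATAAA in 12.4%. None of these letters occurred in the windows of *Tssk1*, *Tssk2*, *Tssk3*, *Tssk4* or *Tsks*. For *Tssk3* the bases before the gene span given above were not searched. For *Tssk3*, *Tssk4* and *Tsks* the bases before the RefSeq gene span were not searched either.

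All 6 genes rose in the WT testis from day 20 to day 26, by 5.57 to 7.98 on the log2 scale (adjusted p from 1.16e-07 to 1.17e-06, edgeR quasi-likelihood test with Benjamini-Hochberg adjustment over all genes). Of all genes tested, 24.4% rose in this comparison. The median log2 fold change was 6.61 over the 6 genes and -0.04 over all genes. The largest difference was that of *Tssk2* (log2 fold change 7.98, SE 0.847), followed by *Tsks* (6.85, SE 0.638), *Tssk3* (6.81, SE 0.621), *Tssk5* (6.42, SE 0.771), *Tssk1* (5.58, SE 0.554) and *Tssk4* (5.57, SE 0.605), and neighbours in this order differed by less than the sum of their SEs. The places of *Tssk2* and *Tssk5* are loose, since the *Tssk5* value rests on 5 counts in the WT group of day 20, and without WT_d20_4 the values were 8.97 for *Tssk2* and 7.99 for *Tssk5*.

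*Tssk1* measured 3.06, 0.632, 1.97 and 4.10 CPM in the 4 WT libraries of day 20, 21.3, 12.3, 20.0 and 15.9 CPM at day 22, 64.8 and 52.0 CPM at day 24, and 120 and 120 CPM at day 26. *Tssk2* measured 0.472, 0.105, 0.173 and 1.30 CPM at day 20, 13.9, 6.52, 8.74 and 6.75 CPM at day 22, 57.5 and 46.5 CPM at day 24, and 143 and 125 CPM at day 26. For both genes every WT library lay above all WT libraries of the preceding day sampled. *Tsks*, whose protein is a substrate and anchor of these kinases, measured 1.02, 0.948, 0.405 and 1.15 CPM at day 20, 8.31, 3.85, 6.29 and 5.78 CPM at day 22, 43.4 and 35.1 CPM at day 24, and 107 and 92.2 CPM at day 26. Its WT groups did not overlap either.

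*Tssk3*, which encodes a kinase required for male fertility in the mouse, measured 0.472, 0.211, 0.116 and 0.576 CPM at day 20, 4.01, 2.68, 3.79 and 3.58 CPM at day 22, 13.3 and 12 CPM at day 24, and 43.0 and 34.8 CPM at day 26. *Tssk4*, whose kinase binds and phosphorylates the outer dense fibre protein ODF2, measured 0.864, 0.948, 1.04 and 1.66 CPM at day 20, 10.4, 6.36, 9.26 and 9.15 CPM at day 22, 37.0 and 25.5 CPM at day 24, and 53.4 and 55.2 CPM at day 26. *Tssk3* and *Tssk4* again showed no overlap between successive WT days. *Tssk5* had 0, 0, 1 and 4 counts in the 4 WT libraries of day 20, against 14 to 31 counts at day 22. It measured 2.18, 1.17, 0.815 and 0.869 CPM at day 22, 8.81 and 5.37 CPM at day 24, and 7.47 and 9.90 CPM at day 26. *Tssk5* was therefore the only one of the 6 whose WT libraries of days 24 and 26 overlapped, and 3 counts, taken as the floor of detection, were worth between 0.173 and 0.316 CPM in the WT libraries of day 20.

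**Figure D1:**
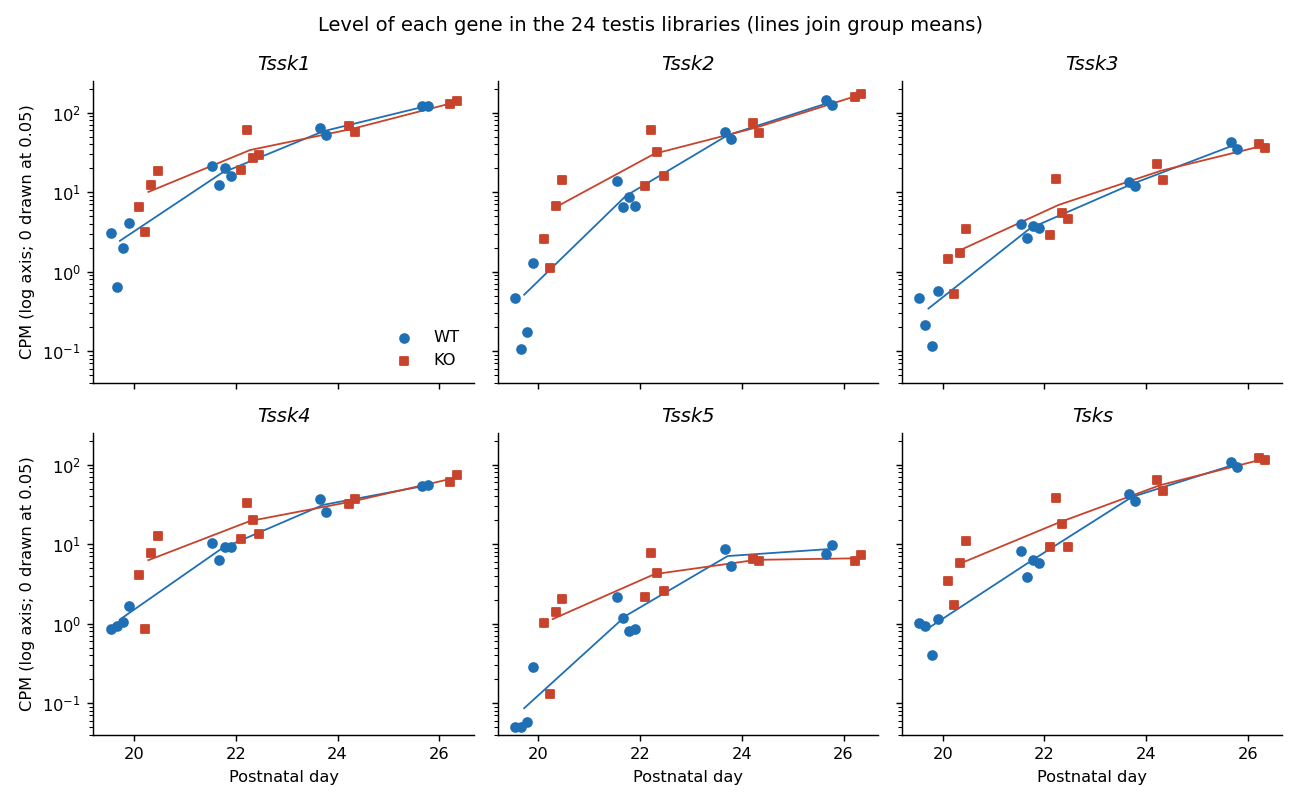
Level of each gene in CPM on a log axis against postnatal day, with 1 point for each WT (blue circles) or KO (red squares) library, values of 0 drawn at 0.05 CPM, and lines joining the group means. KO points lie mostly above WT points at days 20 and 22 and near them at days 24 and 26, and *Tssk5* lies between 5.37 and 9.90 CPM at both of these days.

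The WT increase was tested step by step. From day 20 to day 22 all 6 genes rose, by 2.79 (*Tssk1*, SE 0.495) to 4.08 (*Tssk2*, SE 0.818) on the log2 scale, with an adjusted p of 0.00486 or less in edgeR, where 12.9% of all genes rose. Without WT_d20_4 the values were 5.13 for *Tssk2* and 5.25 for *Tssk5*. Every WT library of day 22 lay above every WT library of day 20 for all 6 genes, as it did for 13.2% of all genes. From day 22 to day 24 all 6 rose again, by 1.75 (*Tssk1*, SE 0.488) to 2.69 (*Tsks*, SE 0.524), with adjusted p from 0.00535 to 0.0413, where 5.88% of all genes rose. The groups were again apart for all 6 genes, as for 18.3% of all genes. The calls of this second step depended on single libraries, and 0 of the 6 genes passed the threshold without WT_d24_1, 2 without WT_d24_2, WT_d22_2, WT_d22_3 or WT_d22_4, and 3 without WT_d22_1. Without one of the other 18 libraries 4 to 6 passed, and the call of *Tssk4* was lost in 18 of the 24 fits and that of *Tssk1* in 15. These 2 calls were also lost without the filter on low counts. With the replicate numbers added to the fit as a block, 2 of the 6 genes passed in this step.

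From day 24 to day 26 in WT, log2 fold changes ran from 0.29 (*Tssk5*, SE 0.611) to 1.62 (*Tssk3*, SE 0.568), and 0 of the 6 genes passed the threshold in edgeR or in DESeq2, with 2 at an unadjusted p under 0.05 in edgeR, *Tssk3* and *Tsks*. These 2 genes were called when the WT libraries were fitted on their own. Only 0.262% of all genes rose in this step. Both WT libraries of day 26 lay above both of day 24 for 5 of the 6 genes, all but *Tssk5*, as they did for 26.6% of all genes.

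Levels were compared between genes only per kilobase of exon. At day 26 the WT libraries gave 96.8 ± 9.13 CPM per kilobase for *Tssk2* (mean ± SD, n = 2), 51.4 ± 5.41 for *Tsks*, 31.6 ± 0.778 for *Tssk4*, 30.4 ± 4.56 for *Tssk3* and 4.19 ± 0.828 for *Tssk5*. *Tssk4* and *Tssk3* did not differ beyond their spread, while the other neighbours in this order had libraries that did not overlap. The place of *Tssk1* depended on its gene model, since its level was 82.9 CPM per kilobase with the 1451 bases that RefSeq gives it and 32.5 with the 3700 bases of GENCODE M21, and the gene models behind the counts are not given in the sources used here.

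At day 20, 5 of the 6 genes were called higher in KO than in WT by edgeR, where 2.98% of all genes were called higher, and *Tssk3* missed the threshold with an adjusted p of 0.0593. DESeq2 called all 6 higher, where it called 4.55% of all genes, and edgeR without the filter on low counts called 4, as *Tssk1* also missed the threshold. The median log2 fold change of the 6 genes was 2.57, and that of all genes was 0.00.

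*Tssk1* measured 6.53, 3.14, 12.2 and 18.4 CPM in the KO libraries of day 20, and rose by 2.0 on the log2 scale against WT (SE 0.499, adjusted p = 0.0306). *Tssk2* measured 2.61, 1.11, 6.67 and 14.3 CPM in KO, and rose by 3.54 (SE 0.837, adjusted p = 0.0226). For both genes the low library KO_d20_2 lay within the WT range, while the other 3 KO libraries lay above it. *Tsks* measured 3.41, 1.70, 5.88 and 11 CPM in KO, and rose by 2.68 (SE 0.615, adjusted p = 0.0192). *Tsks* was the only one of the 6 for which every KO library lay above every WT library, as was the case for 3.03% of all genes.

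*Tssk4* measured 4.06, 0.850, 7.66 and 12.6 CPM in the KO libraries of day 20, and rose by 2.46 (SE 0.568, adjusted p = 0.0197). *Tssk3* measured 1.45, 0.523, 1.72 and 3.45 CPM in KO, with a log2 fold change of 2.37 (SE 0.668). *Tssk5* had 14, 2, 21 and 30 counts in KO, or 1.02, 0.131, 1.39 and 2.03 CPM, and was called higher with an adjusted p of 0.0238. Its fitted log2 fold change of 3.50 (SE 0.850) rests on 5 counts summed over the WT group, and its size depends on the small count added before taking logs. In all 6 genes KO_d20_4 was the highest KO library and KO_d20_2 the lowest, and the KO libraries spanned a wider range of CPM than the WT libraries.

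The day 20 calls rested on few libraries. When any one of KO_d20_3, KO_d20_4, WT_d20_1, WT_d20_2 or WT_d20_3 was left out, 0 of the 6 genes passed the threshold, while all 6 passed without KO_d20_2. The fold changes kept their direction in each of these fits, and *Tssk2*, for example, ranged from 2.71 without KO_d20_4 to 4.58 without WT_d20_4. *Tsks* was at 2.66 without KO_d20_3 (adjusted p = 0.0526, edgeR), against 2.68 with all libraries. *Tssk5* reached 5.11 without WT_d20_4, and without KO_d20_4 *Tssk4* was at 1.87 and *Tsks* at 2.09. With the libraries of day 20 fitted on their own, 4 of the genes passed the filter, *Tssk1*, *Tssk2*, *Tssk4* and *Tsks*, and 0 were called. Their log2 fold changes there were 2.01, 3.54, 2.46 and 2.66, and the share of all genes called in that fit is not given here. Without the low-quality library WT_d20_2 the call was lost for the 5 genes.

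At day 22 the same genes had higher means in KO, but none passed the threshold in edgeR. Log2 fold changes ran from 0.96 (*Tssk1*, SE 0.421) to 1.76 (*Tssk2*, SE 0.565), with adjusted p from 0.0638 (*Tssk5*) to 0.286 (*Tssk3*), and all 6 had an unadjusted p under 0.05. In this comparison 1.26% of all genes were called higher by edgeR. DESeq2 called 2 of the 6 higher, *Tssk5* and *Tsks*, where it called 2.46% of all genes.

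*Tssk1* measured 18.9, 60.3, 27.1 and 29.2 CPM in the KO libraries of day 22, and *Tssk2* measured 12, 61.4, 32.4 and 15.8 CPM. *Tsks* measured 9.32, 38.2, 18 and 9.18 CPM and had a log2 fold change of 1.62 against WT (SE 0.462, adjusted p = 0.071, edgeR). KO_d22_2 was the highest library of the group for these 3 genes, and KO_d22_1 lay within the WT range for *Tssk1* and *Tssk2*. *Tssk3* measured 2.90, 14.8, 5.40 and 4.56 CPM, *Tssk4* measured 11.6, 33.1, 20.1 and 13.5 CPM, and *Tssk5* measured 2.18, 7.70, 4.28 and 2.61 CPM. KO_d22_2 was again the highest, and without it the log2 fold changes of the 6 genes fell to between 0.28 (*Tssk3*) and 1.28 (*Tssk5*). Every KO library lay above every WT library for *Tssk4* and *Tsks*, 2 of the 6 genes, against 3.64% of all genes.

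At days 24 and 26 none of the 6 genes was called in KO against WT. At day 24 log2 fold changes ran from -0.16 (*Tssk5*, SE 0.616) to 0.55 (*Tssk3*, SE 0.563), and at day 26 from -0.38 (*Tssk5*, SE 0.611) to 0.32 (*Tssk4*, SE 0.598). On either day 0 passed in edgeR, 0 passed in DESeq2, and 0 had an unadjusted p under 0.05 in edgeR. Of all genes, 0.0175% were called higher in KO at day 24 and 0% at day 26. *Atad2* itself was not called lower in KO at day 26, at a log2 fold change of -1.25 (SE 0.255, adjusted p = 0.0628, edgeR).

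In the KO libraries of day 24, *Tssk1* measured 67.4 and 57.4 CPM, *Tssk2* 74.2 and 55.6 CPM, and *Tsks* 64.2 and 46.5 CPM. *Tssk3* measured 22.9 and 14.1 CPM, *Tssk4* 32.3 and 36.5 CPM, and *Tssk5* 6.49 and 6.21 CPM. Both KO libraries lay above both WT libraries for 2 of the 6 genes, *Tssk3* and *Tsks*, as for 22.6% of all genes. In the KO libraries of day 26, *Tssk1* measured 128 and 139 CPM, *Tssk2* 157 and 172 CPM, and *Tsks* 120 and 113 CPM. *Tssk3* measured 40.6 and 35.7 CPM, *Tssk4* 60.9 and 74.2 CPM, and *Tssk5* 6.06 and 7.23 CPM. Both KO libraries lay above both WT libraries for 4 genes, *Tssk1*, *Tssk2*, *Tssk4* and *Tsks*, as for 27.8% of all genes, and below both for *Tssk5*, as for 31.1% of all genes.

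**Figure D2:**
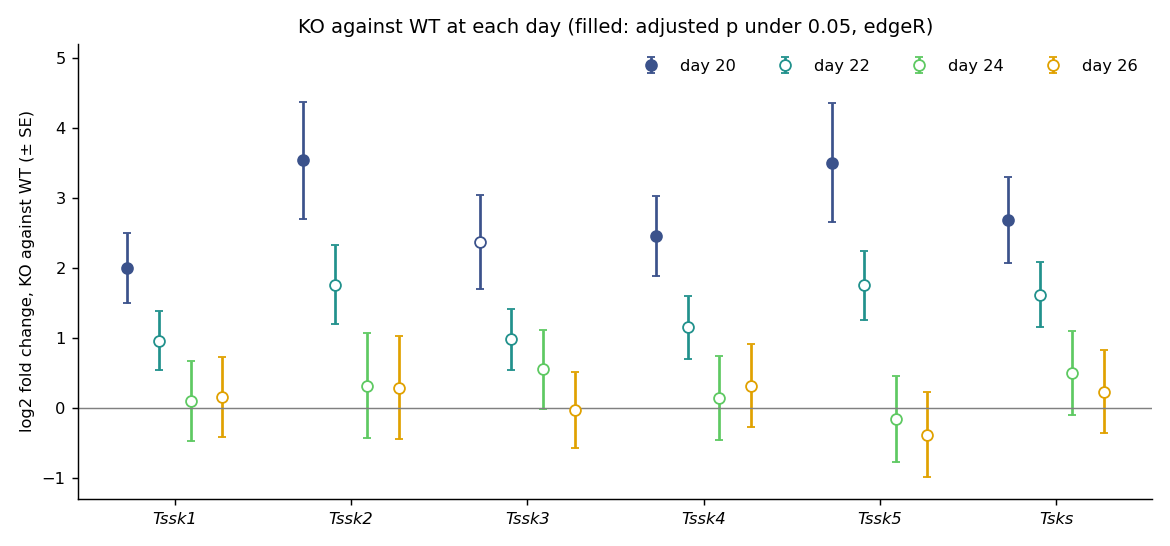
Log2 fold change of KO against WT with its SE, for each gene at each of the 4 days, from the edgeR fit over 24 libraries, with filled points for an adjusted p under 0.05. The 5 filled points are all of day 20, the points of day 22 lie between 0.96 and 1.76, and those of days 24 and 26 lie between -0.38 and 0.55.

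Averaged over the 4 days with equal weight, 5 of the 6 genes were called higher in KO by edgeR, where 3.52% of all genes were. The log2 fold changes were 1.48 for *Tssk2* (SE 0.372, adjusted p = 0.0267), 1.25 for *Tsks* (SE 0.290, adjusted p = 0.0191), 1.18 for *Tssk5* (SE 0.337, adjusted p = 0.0398), 1.02 for *Tssk4* (SE 0.281, adjusted p = 0.0374) and 0.97 for *Tssk3* (SE 0.282, adjusted p = 0.0444). *Tssk1* had a value of 0.80 (SE 0.261, adjusted p = 0.068). DESeq2 called all 6 higher over the 4 days, with 6.26% of all genes, and edgeR without the filter on low counts called 2, *Tssk2* and *Tsks*. These calls were near the threshold. None of the 6 genes passed without WT_d24_2, 1 passed without any one of WT_d20_3, KO_d24_1, KO_d26_2, WT_d26_1 or WT_d26_2, 2 without any one of KO_d20_3, WT_d20_2, WT_d22_2, WT_d22_3, WT_d22_4, KO_d24_2 or KO_d26_1, and 3 without KO_d20_4 or WT_d24_1. In the remaining fits 4 to 6 passed.

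Whether the KO effect differed between the 4 days was tested jointly. In edgeR 0 of the 6 genes passed, with adjusted p from 0.327 (*Tssk5*) to 0.629 (*Tssk3*), 4 had an unadjusted p under 0.05, and 0.00582% of all genes passed. DESeq2 called 1 of the 6, *Tssk5*, and 1.56% of all genes. The larger KO values at day 20 than at day 26 were thus not shown to differ between days for 5 of the 6 genes, and for *Tssk5* by DESeq2 only.

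In the KO testis all 6 genes rose between days 20 and 26, by 2.54 (*Tssk5*, SE 0.562) to 4.73 (*Tssk2*, SE 0.669) on the log2 scale, with an adjusted p of 0.000961 or less in edgeR, where 27.2% of all genes rose. From day 20 to day 22 all 6 rose, by 1.64 (*Tssk4*, SE 0.459) to 2.30 (*Tssk2*, SE 0.582), with adjusted p from 0.0207 to 0.0325, where 7.37% of all genes rose. The KO libraries of the 2 days were apart for 2 of the 6 genes, *Tssk1* and *Tssk5*, against 7.13% of all genes. None of the 6 calls held without KO_d20_1, without KO_d20_2 or without KO_d22_2, and 4 held without KO_d20_3. With the KO libraries fitted on their own, 0 of the 6 were called. Without KO_d22_2 the values from day 20 to day 22 fell to between 1.14 (*Tsks*) and 1.70 (*Tssk2*), and without KO_d20_4 they were 3.13 for *Tssk2* and 2.35 for *Tsks*. From day 20 to day 26 the values without KO_d20_4 were 5.56 for *Tssk2*, 4.99 for *Tsks* and 4.01 for *Tssk4*.

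From day 22 to day 24 in KO the log2 fold changes ran from 0.60 (*Tssk5*, SE 0.533) to 1.56 (*Tsks*, SE 0.507), and from day 24 to day 26 from 0.07 (*Tssk5*, SE 0.617) to 1.34 (*Tssk2*, SE 0.753). Neither step gave a call among the 6 genes in edgeR or DESeq2, and the numbers with an unadjusted p under 0.05 in edgeR were 2 and 0. Of all genes 0.402% rose in the first of these steps and 0.0116% in the second. Later libraries lay above all earlier ones for *Tsks* alone in the first, against 11.8% of all genes, and for 5 of the 6 genes, all but *Tssk5*, in the second, against 35.9% of all genes. Leaving out KO_d22_2 made 2 genes, *Tssk3* and *Tsks*, pass in the step from day 22 to day 24, at log2 fold changes of 2.11 and 2.19.

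Some balances within the family differed between ages. The ratios were chosen after the values were seen and are given without a test, and 2 of the 6 computed are given for every library. The ratio of *Tssk2* to *Tssk1* counts within a library, which does not depend on library scaling, was 0.154, 0.167, 0.0882 and 0.316 in WT on day 20, 0.656, 0.531, 0.437 and 0.426 on day 22, 0.887 and 0.895 on day 24, and 1.19 and 1.04 on day 26. In KO it was 0.400, 0.354, 0.549 and 0.779 on day 20, 0.633, 1.02, 1.20 and 0.539 on day 22, 1.10 and 0.968 on day 24, and 1.23 and 1.23 on day 26. The ratio was thus higher on each later day in WT without overlap, and every KO library exceeded every WT library at days 20, 24 and 26 but not on day 22. In WT_d20_2 and WT_d20_3 it rests on 1 and 3 counts of *Tssk2*.

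The ratio of *Tssk5* to *Tssk4* counts was lower on day 26 than on day 24. It was 0, 0, 0.0556 and 0.174 in WT on day 20, 0.209, 0.184, 0.0881 and 0.0950 on day 22, 0.238 and 0.211 on day 24, and 0.140 and 0.179 on day 26. In KO it was 0.250, 0.154, 0.181 and 0.161 on day 20, 0.188, 0.233, 0.213 and 0.194 on day 22, 0.201 and 0.170 on day 24, and 0.0994 and 0.0974 on day 26. Both genotypes had lower ratios on day 26 than on day 24 without overlap, but in WT the ratios of days 22 and 26 overlapped. The KO ratios of day 26 lay below the WT ratios. The ratio of *Tssk4* to *Tssk1* showed no such order in WT between days 22 and 24, with 0.464 to 0.577 on day 22 and 0.490 to 0.571 on day 24, and was 0.443 to 0.459 on day 26.

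**Figure D3:**
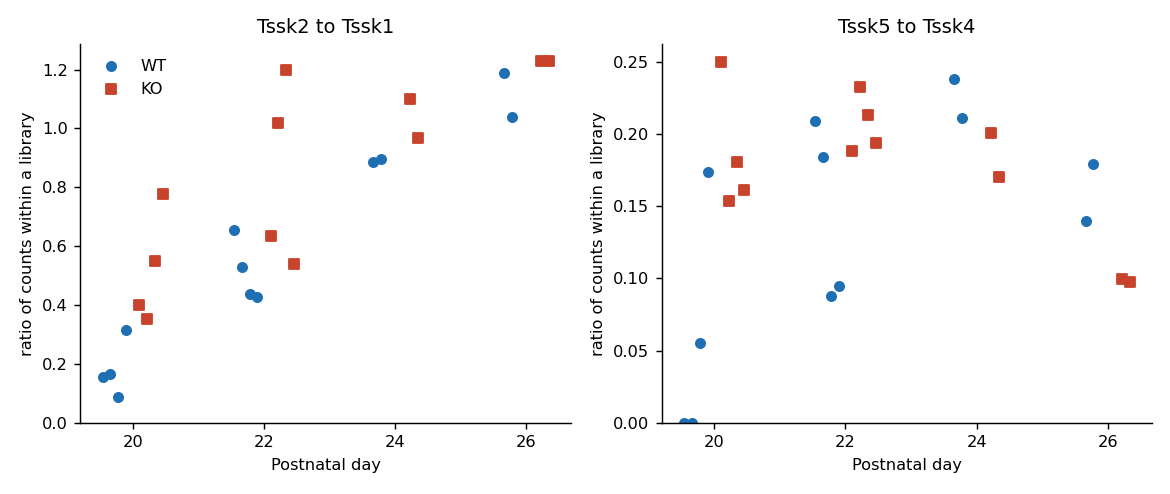
Ratio of counts within each library against postnatal day, *Tssk2* to *Tssk1* on the left and *Tssk5* to *Tssk4* on the right, with 1 point per WT (blue circles) or KO (red squares) library. The left ratio runs from 0.0882 in a WT library of day 20 to 1.23 in the KO libraries of day 26, and the right ratio of the KO libraries is at most 0.0994 at day 26.

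The markers of round spermatids moved with the family. Summed over *Acrv1*, *Spaca1*, *Actl7a*, *Actl7b*, *Sun5* and *Gsg1*, genes of the acrosome, the nuclear envelope and other spermatid structures, they measured 29.2, 11.4, 19.2 and 37.0 CPM in the WT libraries of day 20 and 61.7, 40.5, 109 and 165 CPM in the KO libraries. At day 20 all 6 of these markers were called higher in KO by edgeR, with a median log2 fold change of 3.05, and at day 22 0 were, by edgeR or DESeq2, with 5 at an unadjusted p under 0.05 in edgeR and a median of 1.27. Of the 9 elongating spermatid markers, which include the protamines and transition proteins, edgeR called 5 higher in KO at day 20 and 4 at day 22, and DESeq2 called 5 and 0. The 5 that DESeq2 called at day 20 were *Akap4*, *Gapdhs*, *Oaz3*, *Odf1* and *Smcp*, without the protamine and transition protein genes. The 6 kinase family genes summed to 5.89, 2.84, 3.76 and 9.07 CPM in WT at day 20 and to 19.1, 7.45, 35.5 and 61.8 CPM in KO, so that KO_d20_2 was the lowest KO library and KO_d20_4 the highest in both sums. At day 22 KO_d22_2 was the highest in both sums, with 216 CPM of the family and 523 CPM of the round spermatid markers.

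As a percentage of the round spermatid marker sum, the family sum was 19.5% to 25.0% in WT and 18.4% to 37.5% in KO on day 20, 28% to 34.7% in WT and 33.0% to 41.2% in KO on day 22, 38.2% to 39.1% in WT and 42.3% to 46.5% in KO on day 24, and 44.2% to 49.5% in WT and 48.8% to 51.0% in KO on day 26. Its lowest and its highest values were greater on each later day in both genotypes, and WT and KO overlapped at each day but day 24. The part of spermatid number in the higher KO levels was not tested. The other lists moved less at day 20. Of 7 pachytene markers edgeR called 1 higher in KO and DESeq2 called 2, *Ccna1* and *Pgk2*, and of the 7 Sertoli, 6 Leydig, 4 peritubular and 6 spermatogonial markers 0 were called in either direction by edgeR, where 0, 3, 1 and 2 had an unadjusted p under 0.05. DESeq2 called the Leydig cell gene *Insl3* and the smooth muscle gene *Myh11* among these. Peritubular markers had a median log2 fold change of -0.40 at day 20, and 2 of 4 were called lower in KO over the 4 days. Leydig markers had a median log2 fold change of 0.92 at day 20, with summed levels of 333 to 433 CPM in WT and 318 to 837 CPM in KO, and 1 of 6 was called higher in KO over the 4 days. The part of these cells in the KO values of the family was not tested.

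**Figure D4:**
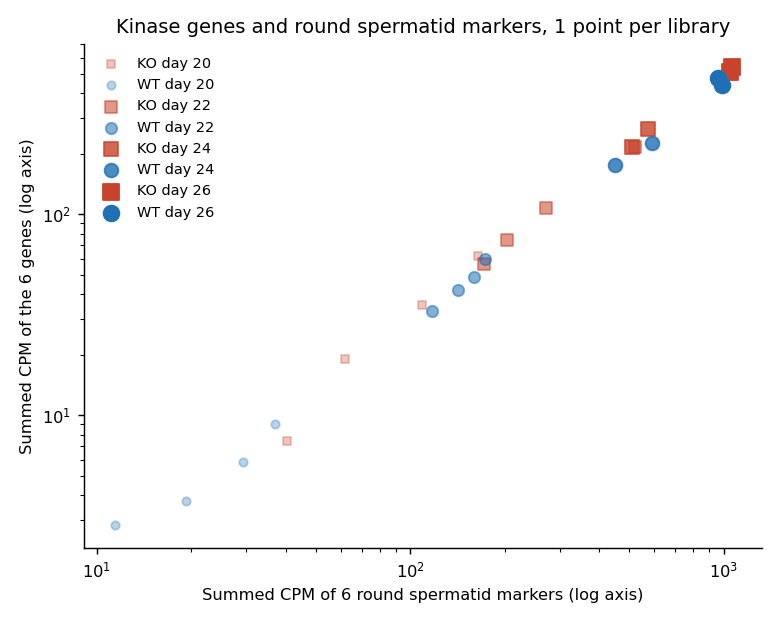
Summed CPM of the 6 kinase family genes against summed CPM of the 6 round spermatid markers, both on log axes, with 1 point per library, WT in blue circles and KO in red squares, and larger and darker points for later days. The points follow 1 band from 2.84 CPM of the family in WT_d20_2 to 541 CPM in KO_d26_2, and the KO points of day 20 run from 7.45 to 61.8 CPM of the family.

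Over the 24 libraries the log2 CPM of any pair of the 6 genes had a Pearson r between 0.943 and 0.991 (15 pairs), and after the group means were removed between 0.727 and 0.934. These values are descriptive, since the libraries share ages and cell makeup. The pairs with *Tssk5* ran from 0.943 (with *Tssk3*) to 0.974. The genes most like the mean profile of the family were *Kif2b*, which encodes a kinesin motor (r = 0.9977), *Gsg1* (0.9977), *Spz1*, which encodes a germ cell transcription factor (0.9976), *Oaz3*, the antizyme of haploid germ cells (0.9973), and *Tmem247* (0.9973). *Gsg1* and *Oaz3* are also on the marker lists above, and 639 genes had an r above 0.95. The nearest gene to each member was *Spata20* for *Tssk1* (0.9978), *Kif2b* for *Tssk2* (0.9974), *Gsg1* for *Tssk3* (0.9938), the sperm tail gene *Odf3* for *Tssk4* (0.9969), the desmosomal cadherin gene *Dsg1a* for *Tssk5* (0.9910) and *1700019D03Rik* for *Tsks* (0.9926). *Kif2b* measured 0.867 to 3.96 CPM in WT and 3.33 to 40.0 CPM in KO at day 20, and 324 to 351 CPM in WT at day 26.

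Genes that work with the kinases had smaller log2 fold changes between days 20 and 26 in WT than any of the 6 family genes. Of 8 partners, which include the chaperones *Hsp90aa1* and *Hsp90ab1*, the cochaperone *Tsacc*, the upstream kinase *Pdpk1*, the phosphatase *Ppp1cc* and the substrates *Odf2*, *Spag16* and *Creb1*, 5 rose and 2 fell in WT from day 20 to day 26, with a median log2 fold change of 0.54. In this comparison 18.1% of all genes fell. *Odf2* rose by 1.84 (SE 0.250, adjusted p = 4.15e-06, edgeR) and *Tsacc* by 0.72 (SE 0.252, adjusted p = 0.0257), while *Creb1* fell by 0.60 (SE 0.214, adjusted p = 0.0293) and *Hsp90ab1* fell by 0.38 (SE 0.127, adjusted p = 0.0199). In KO against WT, 0 of the 8 were called at any of the 4 days or over their mean by edgeR or by DESeq2. At most 1 had an unadjusted p under 0.05 in edgeR in any of these comparisons, and the median at day 20 was 0.02.

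Of 10 genes of the chromatoid body and the annulus, the structures of spermatids where the kinases and TSKS have been placed, 8 rose in WT from day 20 to day 26 with a median of 0.76. The septin gene *Sept4* rose most, by 3.10 (SE 0.322, adjusted p = 2.34e-07, edgeR). At day 20 only *Tdrd7*, a tudor gene of the chromatoid body, was called higher in KO, with 128 to 178 CPM in WT and 190 to 217 CPM in KO (log2 fold change 0.42, SE 0.110, adjusted p = 0.034). The list's median at day 20 was 0.15.

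Of 6 protein kinases of the testis outside the family, all rose in WT from day 20 to day 26, with a median of 1.49. *Camk4*, a calcium and calmodulin-dependent kinase of spermatids, rose by 2.81 (SE 0.320, adjusted p = 5.45e-07, edgeR), and *Tesk2* by 1.58 (SE 0.193, adjusted p = 1.15e-06). In KO against WT, 0 of the 6 were called at day 20 by edgeR or DESeq2, with 1 at an unadjusted p under 0.05 in edgeR and a median of 0.18. At day 22 *Camk4* was called higher in KO, with 2.05 to 2.51 CPM in WT and 2.82 to 7.64 CPM in KO (log2 fold change 1.21, SE 0.291, adjusted p = 0.0302).

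Of 8 transcription regulators of spermatids, 6 rose and 1 fell in WT from day 20 to day 26, with a median of 0.77. *Fhl5*, which encodes the coactivator of CREM, rose by 6.73 (SE 0.686, adjusted p = 3.8e-07, edgeR), *Sox30* rose by 1.81 (SE 0.250, adjusted p = 5.15e-06) and *Crem* rose by 0.98 (SE 0.178, adjusted p = 0.000137), and *Taf7l* fell by 0.49 (SE 0.186, adjusted p = 0.0402). The size of the *Fhl5* increase was thus like that of the kinase family. None of the 8 was called in KO against WT at day 20 by edgeR, where 2 had an unadjusted p under 0.05 and DESeq2 called *Fhl5* alone, and where *Fhl5* measured 0.550 to 1.05 CPM in WT and 0.915 to 5.55 CPM in KO. At day 22 *Fhl5* was called higher in KO, with 2.10 to 4.30 CPM in WT and 4.02 to 30.4 CPM in KO (log2 fold change 2.30, SE 0.530, adjusted p = 0.0293).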

How the data were processed

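Whole-testis RNA of 24 libraries was read as ribosome-depleted, stranded, paired-end sequence. The authors aligned reads to mm10 with STAR 2.7.11b and deposited raw counts per gene from HTSeq 2.0.5, taken with strand and from uniquely aligned pairs, so near-identical genes can be under-counted. The 5 tallies of unassigned pairs were left out; pairs outside counted exons were 45.1% to 58.5% of all pairs. Groups followed the labels, which give 4 replicates per genotype at day 20, where the study's text gives fewer.

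Counts were tested with edgeR 4.0.16 in R 4.3.3 (limma 3.58.1), with TMM scaling, filterByExpr at a minimum count of 10, 1 coefficient for each of the 8 groups, and Benjamini-Hochberg adjustment over 17170 genes. A gene was called at an adjusted p under 0.05. The standard error (SE) was the log2 fold change divided by the square root of F. CPM used TMM library sizes, and fold changes a prior count of 0.125. No 2 libraries of a group agreed within counting noise (28 pairs). Read pairs carry no molecular identifiers, so floors cover counting error only.

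Alternatives were DESeq2 1.42.0, its size factors in edgeR, no low-count filter, a prior count of 2, a replicate block, each day or genotype alone, and leaving out each library. The genes named outside the family were those with the highest Pearson r to the mean profile (5) or to each member (1), and, of each list, up to 6 called genes with the lowest adjusted p. *Creb1* and *Taf7l*, which fell, were named after their values were seen. The 6 genes, lists, markers and motifs were chosen with earlier results of these data known.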

Additional observations from a re-analysis of the deposited data

How the results depend on the processing

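Of 2904 values recomputed under the alternatives, 2655 kept their direction and their side of the threshold or stayed near the count, 165 lost and 29 gained a call, 44 counts or values moved and 11 changed sign. With each day fitted alone, the number of the 6 genes called at day 20 was 0, with 4 genes passing the filter there. DESeq2 called 2 at day 22 and 1 in the joint test of the days. Without a filter on low counts, 2 were called over the 4 days. In the fits of 1 genotype alone, 2 were called in WT from day 24 to day 26 and 0 in KO from day 20 to day 22. The replicate block gave 6 calls at day 20, 1 at day 22 and 2 in WT from day 22 to day 24, and changed no other count of calls by over 1.5 times. For the alternatives other than DESeq2, the share of all genes called is not given here. The labels give the numbers no shared litter or batch, and correlations of same-numbered KO and WT libraries ran from 0.0705 to 0.41 at day 20 and from -0.459 to -0.0254 at day 22, and were 0.39 at day 24 and 0.416 at day 26, where each group has 2 libraries. Since not every pair was over 0.1, the numbers were not taken as pairs. Not every library correlated best with its own number. *Tssk3* in KO against WT at day 26 changed sign to 0.02 with DESeq2 and with its size factors. Leaving out each library in turn gave 0 to 6 calls at day 20, 0 to 3 at day 22, 0 to 6 over the 4 days, 0 to 1 in the joint test, 0 to 6 in WT from day 22 to day 24, 0 to 6 in KO from day 20 to day 22 and 0 to 2 in KO from day 22 to day 24. At day 22 there were 3 calls without KO_d20_2 or KO_d22_1, 2 without KO_d22_4 and 1 without KO_d20_4 or WT_d22_1, and in the joint test 1 without KO_d20_2. The same fits turned the sign of small values at day 24, where *Tssk1* ran from -0.04 to 0.27, *Tssk4* from -0.09 to 0.44 and *Tssk5* from -0.46 to 0.24, and of *Tssk3* at day 26, from -0.17 to 0.14. From day 24 to day 26 *Tssk5* ran from -0.05 to 0.69 in WT and from -0.06 to 0.20 in KO. At days 24 and 26 these fits leave 1 library in a group, which is assumed to vary like the other groups. The cause of these shifts was not tested. Depth limits the WT libraries of day 20, which held 0 to 4 counts of *Tssk5*, 1 to 18 of *Tssk2*, 2 to 8 of *Tssk3* and 7 to 16 of *Tsks*.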
